A study of Rattus norvegicus with 6 samples.

Results

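Txnip and 9 antioxidant enzyme genes, Txn1, Txnrd1, Prdx1, Gpx1, Gpx4, Sod1, Sod2, Cat and Hmox1, were examined in RNA-seq of rat insulinoma lines with and without the genes of the Prader-Willi syndrome (PWS) domain. The genes were chosen by name, as the thioredoxin, glutathione and superoxide defence genes together with Txnip, and each of the 10 names matched a single row among the 32900 features of the table. The cells are INS-1(832/13)::mCherry, a clonal rat beta-cell tumor line that carries a human INS-neoR transgene and a mouse Ins2 C-peptide-mCherry transgene, and every line was grown without further treatment in medium with 7.5 mM glucose, sodium pyruvate and the reducing agent 2-mercaptoethanol. The 3 control lines (5-9, 2 and 16) lack the PWS domain on the silent maternal allele only, whereas the 3 PWS lines (3, 19-1 and 19-4) lack it on both alleles, so the maternal deletion is shared by all 6 lines. Lines 2, 16, 3 and 19 were isolated from line 5-9 in a second round of editing, in which lines 2 and 16 received a control vector. Line 3 has a larger deletion than line 19, and lines 19-1 and 19-4 are subclones of line 19, so that the 3 PWS lines come from 2 clones. There was 1 library of rRNA-depleted total RNA per line and no repeat library of a line, so the spread between lines holds differences between clones as well as between cultures.

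Cells keep hydrogen peroxide low with enzyme chains that draw their electrons from NADPH. In the first, thioredoxin (Txn1) reduces the peroxiredoxins (Prdx1) and is itself reduced by thioredoxin reductase (Txnrd1). In the second, glutathione serves the glutathione peroxidases, among them cytosolic Gpx1 and Gpx4, which reduces lipid hydroperoxides. Superoxide dismutases turn superoxide into hydrogen peroxide, Sod1 in the cytosol and Sod2 in the mitochondrial matrix, catalase (Cat) degrades peroxide in peroxisomes, and Hmox1 is the inducible heme oxygenase. Txnip is an alpha-arrestin that binds reduced thioredoxin and inhibits it. Its transcription in beta cells is induced by glucose through the factor MLXIPL (ChREBP) and its partner MLX, and pancreatic beta cells are known for little catalase and glutathione peroxidase activity, which makes Txnip and this set of enzymes a recurrent subject in studies of beta-cell failure.

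The libraries held from 26016478 to 36084261 counted reads, with multiply aligned reads counted at each place, and all values are normalized counts, that is, reads per gene divided by the size factor of the library. Differences between the groups are log2 fold changes, PWS minus control, on log2(normalized count + 1), with the 95% confidence interval and the adjusted p of limma over the 15579 genes whose mean reached 5 normalized counts. Snurf, a gene of the deleted domain, was at 3992, 3160 and 3911 normalized counts in lines 5-9, 2 and 16 of the control group and at 2.04, 0 and 3.64 in lines 3, 19-1 and 19-4 of the PWS group. This pattern matched the labels of all 6 lines. All 12 beta-cell markers examined, such as Pdx1 and Slc2a2, had more than 3 reads in every line, whereas Sst, Prss1, Cftr and Ptprc, which mark delta, acinar and duct cells and leukocytes, were at 0 reads in every line. Of the other markers, the keratin gene Krt7 had 1399 to 1996 reads per line and the glucagon gene Gcg 0 to 110, and 0 of the markers of any other cell type passed the test. The summed beta-cell markers ran from 500111 to 580225 normalized counts in the control lines and from 268651 to 473005 in the PWS lines. Ins1, Ins2 and Iapp were at log2 fold changes of -0.57, -0.99 and -0.64, and 0 of the 12 passed the limma test. By DESeq2 the adjusted p of Iapp was 0.065, and the paper, with a DESeq2 threshold of 0.1, lists Iapp as reduced. Its RT-ddPCR found Ins1, Ins2 and Iapp significantly lower in PWS lines. The part of these marker differences in the values below was not tested.

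None of the 10 genes passed this test between PWS and control lines. The adjusted p-values ran from 0.54 for Hmox1 to 0.98 for Prdx1, and 0 of the 10 passed 0.05, against a background of 0.257% of all genes tested (40 of 15579). By edgeR 0 of the 10 passed, where the background was 0.205%, and by DESeq2 0 passed as well, where it was 1.47%. An unadjusted p under 0.05 was likewise given to 0 of the 10 by each of limma, edgeR and DESeq2, against 11.3%, 11.4% and 10.4% of all genes. Each of the 10 genes had overlapping groups, whereas 17.4% of all genes had their PWS lines all above or all below the control lines. On average 4 were higher and 6 lower in the PWS group, and the median log2 fold change was -0.04, beside -0.0028 over all genes tested. How small a difference these lines could show is given by each gene's interval, which was narrow for Gpx4, Sod1, Sod2 and Cat and wide for Txnip and Gpx1.

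**Figure D1:**
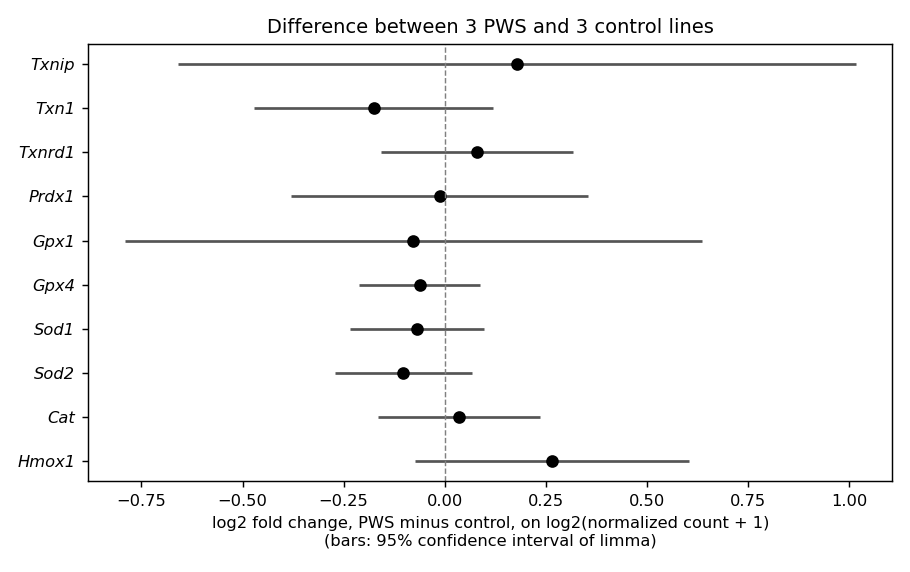
Log2 fold change of each gene between 3 PWS and 3 control INS-1 lines (points) with the 95% confidence interval of limma (bars), on log2(normalized count + 1), with a dashed line at no difference. All 10 intervals cross 0, and those of Txnip (-0.66 to 1.02) and Gpx1 (-0.79 to 0.63) are the widest of the 10.

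Txnip (ENSRNOG00000021201), the inhibitor of thioredoxin, was at 4664, 7920 and 2443 normalized counts in lines 5-9, 2 and 16 of the control group and at 5117, 4125 and 6197 in lines 3, 19-1 and 19-4 of the PWS group. The highest and the lowest of the 6 lines were thus both control lines, 3.24-fold apart, and all 3 PWS lines lay between them, within 1.502-fold of each other. The group means were 5009 ± 2754 in control and 5146 ± 1036 in PWS lines (SD, n = 3 each), and the log2 fold change was 0.18 (SE 0.37, 95% interval -0.66 to 1.02, limma adjusted p = 0.90). On a linear scale this interval runs from 0.633-fold to 2.02-fold of the control level. In bulk RNA, fewer cells that express a gene and less RNA per cell cannot be told apart. The value turned on the 2 extreme control lines, being 0.59 without line 2 (adjusted p = 0.52) and -0.26 without line 16 (adjusted p = 0.71), with adjusted p between 0.52 and 0.99 over all alternatives. It was 0.33 without line 19-1 and 0.035 without line 19-4, and edgeR gave 0.04 on the recovered reads.

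The spread of Txnip between lines of a group was itself large among the genes tested. Its within-group SD was 0.64 on the log2 scale, which stood at the 94.9th percentile of all genes tested and at the 98.6th percentile of the 12738 genes whose mean reached 50 normalized counts, whose median SD was 0.13. Gpx1, at a far lower count, had an SD of 0.36, at the 83.8th percentile of all genes tested. Prdx1 (SD 0.26), Txn1 (0.20) and Txnrd1 (0.15) stood at the 86.4th, 76.3rd and 60.8th percentile of those 12738 genes, and Hmox1 (0.19) at the 72.8th. Sod2, Sod1, Cat and Gpx4 were steady, with SDs between 0.05 and 0.08 at the 21.8th percentile or lower. Counting error was small for Txnip, with 2379 to 8628 reads per line, and 99.9% of its reads were uniquely assigned.

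**Figure D2:**
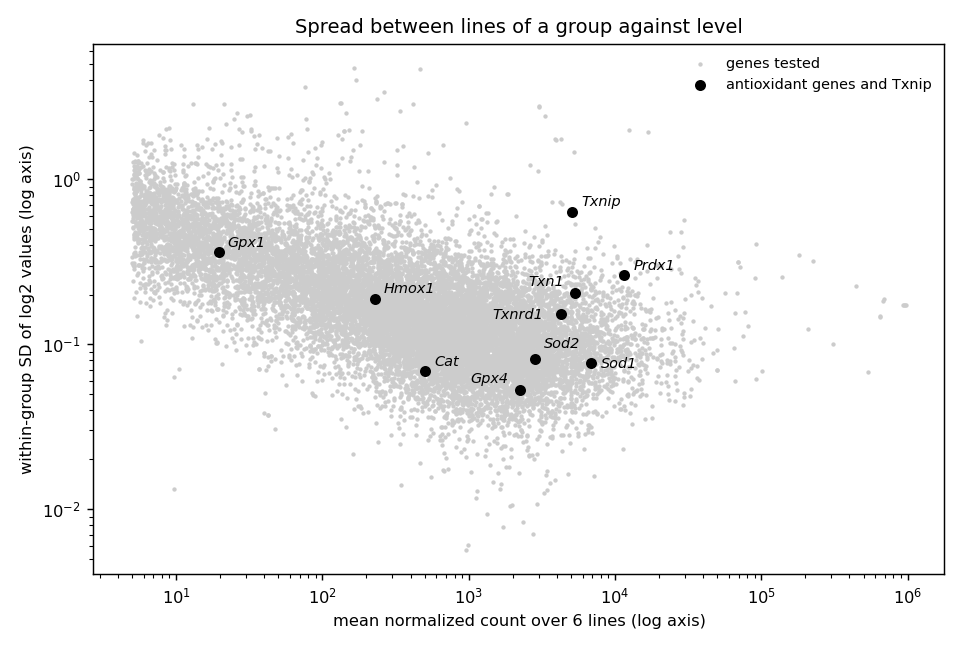
Within-group SD of the log2 values of each gene (vertical, log axis) against its mean normalized count over the 6 lines (horizontal, log axis), for the 15579 genes tested (grey) and the 10 genes described (black, named). Txnip, with an SD of 0.64, lies at the 98.6th percentile of the genes whose mean reached 50 normalized counts, while Gpx4, at 0.05, lies at the 6.34th.

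Txn1 (ENSRNOG00000012081), cytosolic thioredoxin, was at 5331, 6900 and 4810 normalized counts in lines 5-9, 2 and 16 of the control group and at 5008, 4612 and 5313 in lines 3, 19-1 and 19-4 of the PWS group. Line 2 again stood highest, and the PWS lines fell in the lower part of the control range or just under it. Means were 5680 ± 1088 and 4978 ± 352 (SD, n = 3 each), with a log2 fold change of -0.18 (SE 0.13, interval -0.47 to 0.12, limma adjusted p = 0.65), which was -0.03 without line 2 and -0.29 without line 16.

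Txnrd1 (ENSRNOG00000009088), the reductase that recharges thioredoxin, was at 4160, 4730 and 3555 normalized counts in lines 5-9, 2 and 16 of the control group and at 4338, 4164 and 4568 in lines 3, 19-1 and 19-4 of the PWS group. The lines ran from 16 at the bottom to 2 at the top, as for Txnip, over a narrower 1.33-fold range. Means were 4148 ± 588 and 4356 ± 203 (SD, n = 3 each), and the log2 fold change was 0.08 (SE 0.10, interval -0.16 to 0.32, limma adjusted p = 0.82). It was -0.03 without line 16, 0.18 without line 2 and 0.045 without line 19-4.

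Prdx1 (ENSRNOG00000017194), an abundant peroxiredoxin of the cytosol, was at 11136, 14593 and 9356 normalized counts in lines 5-9, 2 and 16 of the control group and at 10510, 10688 and 13172 in lines 3, 19-1 and 19-4 of the PWS group. Lines 2 and 19-4 were high and line 16 low, and the group means were close. These means were 11695 ± 2663 and 11457 ± 1488 (SD, n = 3 each), and the log2 fold change was -0.01 (SE 0.16, interval -0.38 to 0.35, limma adjusted p = 0.98). Only 72.7% of the Prdx1 reads were uniquely assigned, so the rest may be shared with near-identical copies, and without the shared reads the log2 fold change was 0.0021. It was 0.16 without line 2, 0.05 without line 3 and 0.03 without line 19-1, and ran down to -0.16, without line 16.

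Within the glutathione branch, Gpx1 (ENSRNOG00000048812), the cytosolic glutathione peroxidase, gave few reads. It was at 22.8, 20.2 and 16.4 normalized counts in lines 5-9, 2 and 16 of the control group and at 24.5, 20.3 and 12.7 in lines 3, 19-1 and 19-4 of the PWS group. Both the highest and the lowest line were PWS lines, and the 14 to 24 reads per line leave a wide counting error. Its means of 19.8 ± 3.19 and 19.2 ± 5.97 (SD, n = 3 each) gave a log2 fold change of -0.08 (SE 0.31, interval -0.79 to 0.63, limma adjusted p = 0.95), and differences from 0.578-fold to 1.55-fold lay within that interval. Its direction turned without line 5-9 (0.02) and without line 19-4 (0.18), and it was as low as -0.27, without line 3.

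Gpx4 (ENSRNOG00000013604), the lipid hydroperoxide peroxidase, was among the steadiest genes of the set. Its normalized counts were 2306, 2348 and 2264 in lines 5-9, 2 and 16 of the control group and 2265, 2089 and 2277 in lines 3, 19-1 and 19-4 of the PWS group. Line 19-1 was the lowest, and the other 5 lines lay between 2264 and 2348. Means were 2306 ± 42.2 and 2211 ± 106 (SD, n = 3 each), and the log2 fold change was -0.06 (SE 0.07, interval -0.21 to 0.09, limma adjusted p = 0.77), an interval of 0.863-fold to 1.06-fold. Without line 19-1 it was -0.022.

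The superoxide dismutases showed a similarly small spread. Sod1 (ENSRNOG00000002115), the copper and zinc enzyme of the cytosol, was at 7239, 6459 and 7196 normalized counts in lines 5-9, 2 and 16 of the control group and at 6942, 6474 and 6487 in lines 3, 19-1 and 19-4 of the PWS group. Its log2 fold change was -0.07 (SE 0.07, interval -0.23 to 0.10, limma adjusted p = 0.76), and it was -0.12 without line 2, -0.040 without line 5-9 and -0.044 without line 16. Sod1 was thus lowest in line 2, the line in which Txnip, Txn1, Txnrd1 and Prdx1 were highest, but lines 19-1 and 19-4 were nearly as low. Sod2 (ENSRNOG00000019048), the manganese enzyme of mitochondria, was at 3032, 2891 and 2903 normalized counts in lines 5-9, 2 and 16 of the control group and at 2654, 2596 and 2986 in lines 3, 19-1 and 19-4 of the PWS group. PWS lines 3 and 19-1 were below every control line, but line 19-4 was not, and the log2 fold change was -0.10 (SE 0.07, interval -0.27 to 0.07, limma adjusted p = 0.64), which was -0.16 without line 19-4 and -0.063 without line 19-1.

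Cat (ENSRNOG00000008364), peroxisomal catalase, was at 469, 510 and 521 normalized counts in lines 5-9, 2 and 16 of the control group and at 503, 535 and 498 in lines 3, 19-1 and 19-4 of the PWS group. All 6 lines lay within 1.14-fold of each other, with 447 to 556 reads per line. Means were 500.0 ± 27.4 and 512 ± 19.6 (SD, n = 3 each), with a log2 fold change of 0.03 (SE 0.09, interval -0.17 to 0.23, limma adjusted p = 0.92), which ran from -0.01 without line 5-9 to 0.065 without line 16.

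Hmox1 (ENSRNOG00000014117), the heme oxygenase that oxidants and heme induce, had the lowest adjusted p of the 10 genes. It was at 222, 204 and 194 normalized counts in lines 5-9, 2 and 16 of the control group and at 233, 218 and 302 in lines 3, 19-1 and 19-4 of the PWS group. Line 19-4 stood above the other 5 lines, while lines 3 and 19-1 lay near line 5-9. Means were 207 ± 14.3 and 251 ± 44.9 (SD, n = 3 each), and the log2 fold change was 0.27 (SE 0.15, interval -0.07 to 0.60, limma adjusted p = 0.54). Without line 19-4 it was 0.12 (adjusted p = 0.82), with adjusted p between 0.46 and 0.82 over all alternatives, and line 19-1, a subclone of the same clone, was below line 5-9. Line 19-4 also had the most reads of some markers of other islet cells, with 110 reads of Gcg (0 to 20 in the other lines) and 15 of Hhex (1 to 3), while the alpha-cell markers Irx1 and Irx2 and the delta-cell marker Sst were at 0. Their part in the Hmox1 value was not tested.

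**Figure D3:**
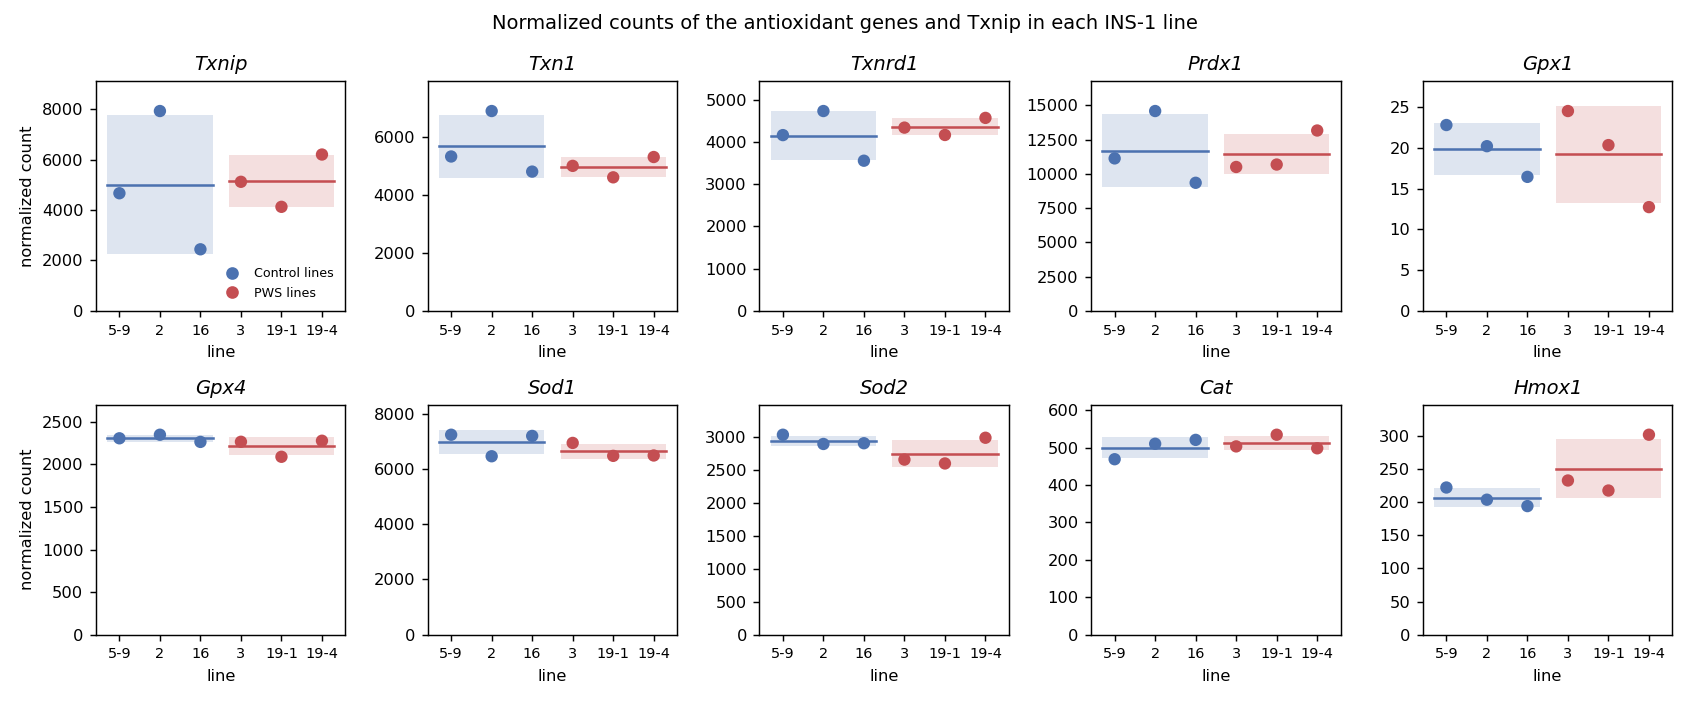
Normalized counts of Txnip and the 9 antioxidant enzyme genes in each INS-1 line (points), with the mean (line) and 1 SD to either side (shaded) of the 3 control lines (blue) and the 3 PWS lines (red). Each panel has its own linear axis from 0, and in all 10 panels the groups overlap, with Txnip ranging from 2443 to 7920 among the control lines alone.

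Of the other 9 genes, Txnrd1, Prdx1 and Txn1 had the highest Pearson correlations with Txnip across lines. Txnip, Txn1, Txnrd1, Prdx1 and Gpx4 had line 2 highest and line 16 lowest among the control lines, and line 19-4 was the highest PWS line for each of these 5 genes. Over the 6 lines, Pearson's r between the log2 values of Txnip and Txnrd1 was 0.990 and Spearman's rho 0.943, which ranked 2 by r among all other genes tested. The correlation with Txnip was 0.921 for Prdx1 (rho 0.829, rank 81) and 0.756 for Txn1 (rho 0.771, rank 742). Without lines 16 and 2, the extremes for Txnip, r was 0.954, 0.809 and 0.699 for Txnrd1, Prdx1 and Txn1 over 4 lines. Among the remaining genes r with Txnip was 0.43 for Hmox1, 0.39 for Gpx4, 0.11 for Sod2, 0.06 for Gpx1, -0.29 for Cat and -0.63 for Sod1. The order depended on the measure and the lines: rho was 0.771 for Gpx4, as for Txn1, and without lines 16 and 2 r was 0.934 for Hmox1 and 0.653 for Gpx4. These values are descriptions and carry no p, since the genes were read from the same 6 libraries with the same size factors and the lines share a clonal origin.

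The deviations had different sizes. In line 2, Txnip was 0.73 above its mean over the 6 lines on the log2 scale, Txn1 0.39, Prdx1 0.35 and Txnrd1 0.16. In line 16 the deviations were -0.97 for Txnip, -0.29 for Prdx1, -0.25 for Txnrd1 and -0.14 for Txn1. The inhibitor therefore varied more between lines than the enzymes that it acts beside. Line 2 also had the highest sum of counted reads, 36084261, and line 19-1 the lowest, 26016478, while line 16, the lowest for Txnip, had 32119377. Without the reads that fit several places or genes these sums were 23022637, 17530149 and 20861821. The part of depth in these values was not tested.

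**Figure D4:**
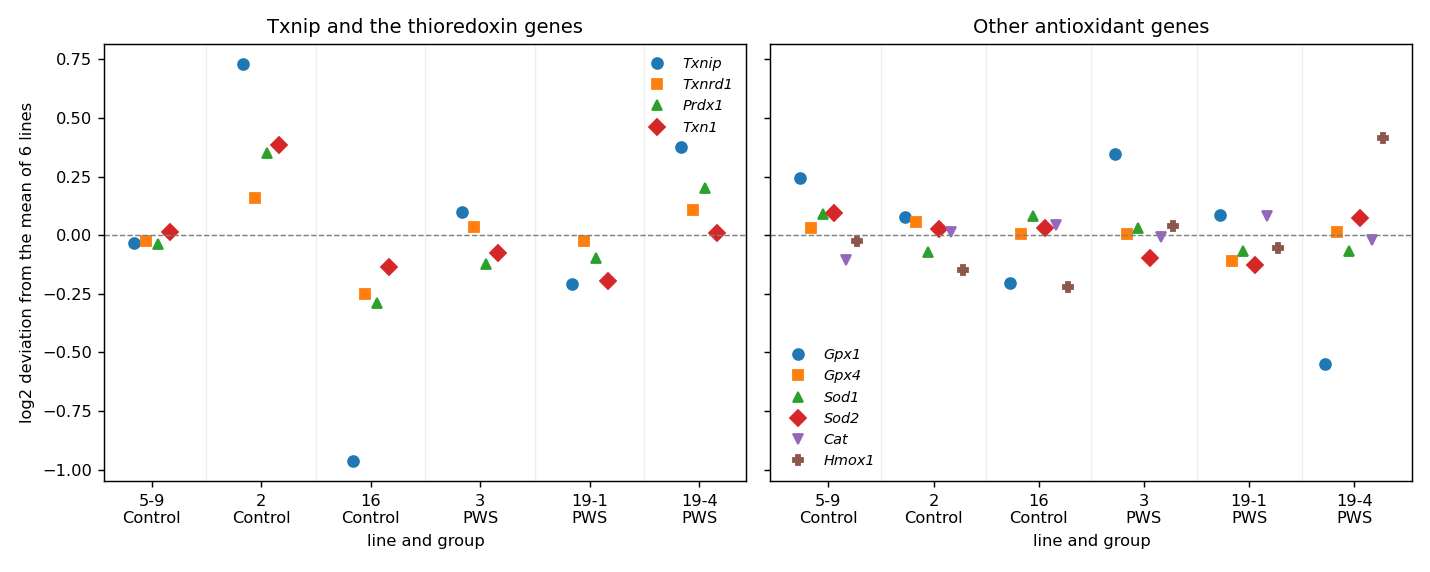
Deviation of each gene's log2(normalized count + 1) from its mean over the 6 lines (vertical), by line and group (horizontal), for Txnip and the thioredoxin genes (left) and the other antioxidant genes (right). On the left all 4 genes are high in line 2 and low in line 16, with Txnip at 0.73 and -0.97, whereas on the right the larger deviations are those of Gpx1 and of Hmox1, which is at 0.41 in line 19-4.

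The log2 ratio of Txnip to Txn1 normalized counts was -0.19, 0.20 and -0.98 in lines 5-9, 2 and 16 of the control group. In lines 3, 19-1 and 19-4 of the PWS group it was 0.03, -0.16 and 0.22. The ratio is of RNA and without transcript lengths, so only its differences between lines can be read. Line 16 alone lay far from the others. The mean was -0.32 ± 0.60 in control and 0.03 ± 0.19 in PWS lines (SD, n = 3 each), and the difference of 0.35 had an exact two-sided permutation p of 0.4, where 3 lines against 3 allow no p under 0.1. Without line 16 the difference was 0.028, and without line 2 it was 0.62.

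By the same measure of likeness, the genes with a symbol that followed Txnip most closely over the 6 lines were Raly, an RNA-binding protein (r = 0.995), Txnrd1, the RNA polymerase I subunit gene Polr1e (0.987), Psat1, an enzyme of serine synthesis (0.986), and Znrd2 (0.981). Their lines differed by 1.33-fold to 1.72-fold from lowest to highest, all less than those of Txnip. Hmox1 was followed by Ttc25, Cyp4x1, Bcap29, Dnph1 and Fam210a, with r between 0.993 and 0.996. These 5 genes, chosen for their likeness to Hmox1 and therefore with its sign, had log2 fold changes from 0.08 for Fam210a to 0.54 for Cyp4x1, with limma adjusted p between 0.42 and 0.67.

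Promoter windows are shown for the 3 thioredoxin genes, which had the highest r with Txnip of the other 9, with matches to the antioxidant response element core (TGACNNNGC or TGAGNNNGC, on either strand), the sequence that NRF2 with a small MAF protein is known to bind, and to the AP-1 type sequence TGACTCA (also on either strand) in capitals. Each window is the 250 bases before a RefSeq start site in the rat assembly GRCr8, 5′ to 3′ on the strand of the gene, which is not the build that the reads were aligned to. The windows are Txn1 at chr5:77519686-77519935 (minus strand), the Txnrd1 start sites at chr7:22764852-22765101 and chr7:22755905-22756154 (both minus strand), and Prdx1 at chr5:135383656-135383905 (plus strand).
Txn1: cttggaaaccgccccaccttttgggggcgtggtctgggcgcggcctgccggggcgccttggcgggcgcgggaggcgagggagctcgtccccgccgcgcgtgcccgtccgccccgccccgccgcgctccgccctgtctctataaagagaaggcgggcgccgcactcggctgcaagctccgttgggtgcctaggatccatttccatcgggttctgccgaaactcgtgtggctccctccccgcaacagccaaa
Txnrd1, start site 1: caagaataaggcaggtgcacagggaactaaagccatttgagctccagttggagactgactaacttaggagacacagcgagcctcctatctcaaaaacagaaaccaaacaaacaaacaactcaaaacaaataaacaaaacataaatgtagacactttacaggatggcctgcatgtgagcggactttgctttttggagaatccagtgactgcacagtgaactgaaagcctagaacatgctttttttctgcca
Txnrd1, start site 2: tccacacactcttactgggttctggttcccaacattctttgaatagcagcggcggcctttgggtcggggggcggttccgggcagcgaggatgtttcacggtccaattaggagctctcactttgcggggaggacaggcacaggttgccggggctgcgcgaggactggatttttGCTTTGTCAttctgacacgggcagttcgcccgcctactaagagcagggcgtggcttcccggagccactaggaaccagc
Prdx1: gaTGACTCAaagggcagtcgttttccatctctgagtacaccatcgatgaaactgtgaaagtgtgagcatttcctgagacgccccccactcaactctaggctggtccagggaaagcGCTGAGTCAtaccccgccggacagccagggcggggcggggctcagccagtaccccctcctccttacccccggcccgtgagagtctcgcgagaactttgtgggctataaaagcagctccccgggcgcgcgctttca

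The Prdx1 window held both motifs, with an AP-1 type match that begins 248 bases before the start and a second match, beginning 133 bases before it, that overlaps an antioxidant response element core. The second Txnrd1 window held a core match on the opposite strand, beginning 78 bases before the start, and the Txn1 and the first Txnrd1 window held neither motif. Windows were found for 8 of the 10 genes, all but Txnip and Hmox1. These 8 genes had 11 windows. A core match was in 5 of the 11, 1 each of Txnrd1, Prdx1, Gpx1, Gpx4 and Sod2, and in 22.8% of all 33469 windows of this length, whereas the AP-1 type sequence was in 1 of the 11, that of Prdx1, and in 4.05% of all windows. A match of letters is a description and does not show that a factor was bound in these cells.

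The genes around these 10 were taken as 9 lists of 146 genes, of which 5, Mlxipl among them, were not analysed here and 118 rows were tested. By limma, edgeR and DESeq2 alike, 0 of the 118 passed the adjusted threshold, and on average 62 were higher and 56 lower in PWS lines. The median of their log2 fold changes was 0.006. By the unadjusted limma p, 8 (6.78%) were under 0.05, beside 11.3% of all genes, and 14 (11.9%) had groups that did not overlap, beside 17.4% of all genes.

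In the thioredoxin and peroxiredoxin list, 6 of the 19 genes tested had a positive log2 fold change and 13 a negative one (median -0.04). The values ran from 0.18 for glutaredoxin, Glrx, to -0.27 for Txnrd3 (limma adjusted p = 0.81 and 0.63), with Glrx between -0.09 (without line 2) and 0.35 (without line 5-9) and Txnrd3 at -0.17 without line 3. The mitochondrial partners Txn2 and Txnrd2 were at -0.03 and 0.10, and the peroxiredoxins Prdx2 and Prdx3 at -0.03 and 0.004. In the glutathione list, 9 of 15 were positive and 6 negative (median 0.02). The glutathione transferase Gsta4 was at 0.52 (interval -0.43 to 1.47, adjusted p = 0.67), with 67.7% of its reads uniquely assigned, and it ran from 0.048 without line 2 to 0.80 without line 3.

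Slc7a11, the cystine transporter that feeds glutathione synthesis, had the lowest log2 fold change of the glutathione list. It was at 233, 301 and 278 normalized counts in lines 5-9, 2 and 16 of the control group and at 214, 189 and 212 in lines 3, 19-1 and 19-4 of the PWS group. Its groups did not overlap, with a log2 fold change of -0.39 (interval -0.70 to -0.09). It was among the 8 list genes with an unadjusted p under 0.05, but the limma adjusted p was 0.34. Gclc and Gclm, the subunits of the enzyme that sets the rate of glutathione synthesis, were at 0.07 and 0.02, and glutathione reductase, Gsr, at 0.05.

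NRF2 (Nfe2l2), the factor that induces many of these enzymes, and Keap1, which holds it in check, had small log2 fold changes. Nfe2l2 was at 1039, 968 and 837 normalized counts in lines 5-9, 2 and 16 of the control group and at 885, 946 and 1166 in lines 3, 19-1 and 19-4 of the PWS group, with a log2 fold change of 0.07 (interval -0.21 to 0.36, limma adjusted p = 0.87), which was -0.02 without line 16 and -0.05 without line 19-4. Line 19-4 was the highest for Nfe2l2, as it was for Hmox1 and for Gcg, whose part here was not tested either. Keap1 had a log2 fold change of -0.03 (interval -0.21 to 0.15, adjusted p = 0.92), and 0.02 without line 19-4. Of the 16 genes tested among NRF2 regulators and targets, 10 were positive and 6 negative (median 0.07), with values from 0.49 for the oxidase Aox1, at 9 to 23 reads per line, to -0.15 for Rbx1, a subunit of the ubiquitin ligase that KEAP1 serves. Aox1 was at 0.20 without line 16, 0.28 without line 19-1, 0.76 without line 19-4 and 1.03 by RSEM, and Rbx1 at -0.091 without line 19-1. Nqo1, a classical NRF2 target, was at -0.11 (adjusted p = 0.76).

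In the list of enzymes that supply NADPH, 10 of 14 log2 fold changes were positive and 4 negative (median 0.04). Idh1, the cytosolic isocitrate dehydrogenase, was at 1556, 1032 and 1542 normalized counts in lines 5-9, 2 and 16 of the control group and at 1725, 2038 and 1891 in lines 3, 19-1 and 19-4 of the PWS group. All 3 PWS lines were above every control line, and the log2 fold change was 0.47 (interval 0.12 to 0.83, limma adjusted p = 0.34). It was 0.28 without line 2, the lowest line. At the other end, Pgls of the pentose phosphate pathway was at -0.19 (adjusted p = 0.48).

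The glucose-sensing list holds the partners and targets of MLXIPL, the factors through which glucose induces Txnip. Of its 13 genes tested, 11 had a positive log2 fold change and 2 a negative one (median 0.12), and 0 passed the adjusted threshold. An unadjusted limma p under 0.05 was given to 3 of the 13 (23.1%, beside 11.3% of all genes), namely Mnt, Gpd1 and Rgs16. The groups did not overlap for 2 of the 13 (15.4%), beside 17.4% of all genes. The repressor Mnt, which pairs with MLX or MAX, was at 0.41 (limma adjusted p = 0.40) and Acly, ATP citrate lyase, at -0.15 (adjusted p = 0.56), or -0.10 without line 2. Gpd1, cytosolic glycerol-3-phosphate dehydrogenase, was at 0.38 (adjusted p = 0.44) and Rgs16, a regulator of G protein signalling, at 0.24 (adjusted p = 0.42). Arrdc4, the alpha-arrestin closest to Txnip and a glucose-induced gene as well, was at 4847, 3264 and 4024 normalized counts in lines 5-9, 2 and 16 of the control group and at 4822, 4323 and 5237 in lines 3, 19-1 and 19-4 of the PWS group. Arrdc4 was therefore lowest in line 2, where Txnip was highest. Its log2 fold change was 0.26 (interval -0.06 to 0.58, adjusted p = 0.53), which was 0.11 without line 2 and 0.40 without line 5-9. The other 3 alpha-arrestins tested, Arrdc1, Arrdc2 and Arrdc3, were at -0.17, -0.21 and -0.11, with Arrdc2 at -0.13 without line 2.

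**Figure D5:**
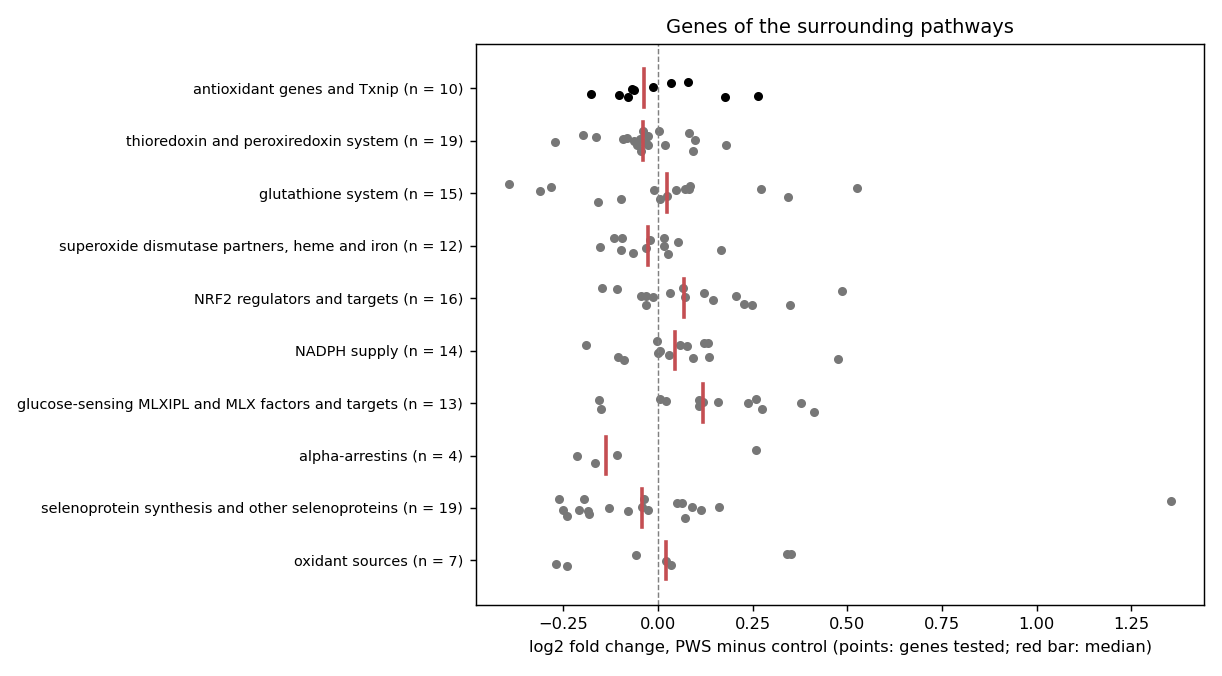
Log2 fold change, PWS minus control, of every gene tested in the 9 lists of surrounding pathways (grey points) and of Txnip and the 9 antioxidant genes (black points), with the median of each list (red bar). The medians lie between -0.14 for the 4 alpha-arrestins and 0.12 for the 13 glucose-sensing genes, and no point passed the adjusted threshold.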

How the data were processed

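Total RNA of 3 control and 3 PWS INS-1 lines, 1 library per line, was sequenced as stranded 75-bp paired reads after rRNA depletion. After trimming with cutadapt, the authors used STAR 2.7.0e for alignment to Ensembl v98 rat sequence with custom features and counted reads per gene with HTSeq 0.11.2 (nonunique all and nonunique none) or RSEM 1.3.1. Whether counting used strand is not given in the sources used here. The deposited values are a signal: counts per gene divided by the size factor that DESeq2 gave each library. Columns with the authors' own log2 fold changes, standard errors, statistic scores and p-values were not used here, nor was their annotation of custom features.

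The nonunique all table was used, which counts a read at each place it aligns. Dividing a library's values by its smallest value above 0 gave whole reads for 100% of them (tolerance 0.001), and edgeR 4.0.16 and DESeq2 1.42.0 were run on these reads as alternatives, edgeR with its quasi-likelihood test. The share of uniquely assigned reads is the nonunique none reads over the nonunique all reads. The test between groups was that of limma 3.58.1 (R 4.3.3, lmFit and trended eBayes), run with a pseudocount of 1 on log2 values of the 15579 genes whose mean reached 5. Benjamini-Hochberg adjusted p-values under 0.05 were called. The code was tested on simulated data. The fold changes of low genes are understated on this scale. Intervals and p-values measure the spread between these lines only. The 10 genes, the lists and the alternatives were chosen with earlier results of these data known. Named genes are the 10, the highest and lowest of each list, Nfe2l2, Keap1 and Arrdc4, and the 5 most correlated with Txnip and with Hmox1. Txn2, Txnrd2, Prdx2, Prdx3, Gclc, Gclm, Gsr, Nqo1, Arrdc1, Arrdc3, Gpd1, Rgs16 and Selenof were chosen after their values were seen. Levels were not compared between genes, since no transcript lengths were used. Promoter windows come from RefSeq (GRCr8).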

Additional observations from a re-analysis of the deposited data

How the results depend on the processing

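Of the 10 genes 0, and of the list genes 0, passed the threshold among those that each of 18 alternatives tested (other pseudocounts, filters, scaling, tests, counting, threshold, block, averaged subclones and each line left out). Over all genes the count of 40 became 9 with a mean of at least 50, 228 by DESeq2, 16 with nonunique none counting and 12 by RSEM, and 33 to 55 with a line left out. The cause was not tested. The median log2 fold change of the 10 genes stayed between -0.09 and 0.01. Directions reversed for small values: Prdx1 was at 0.0021 with nonunique none counting, Gpx1 at 0.035 with lines 19-1 and 19-4 averaged, and Mt1 at -0.033 by edgeR, -0.027 by DESeq2, -0.019 by RSEM and -0.079 with those lines averaged. With a line left out, log2 fold changes crossed 0 for Txnip (-0.26 to 0.59), Txnrd1 (-0.027 to 0.18), Prdx1 (-0.16 to 0.16), Gpx1 (-0.27 to 0.18), Cat (-0.011 to 0.065), Mt1 (-0.29 to 0.83), Glrx (-0.085 to 0.35), Aoc3 (-0.10 to 0.72), Nfe2l2 (-0.045 to 0.15) and Keap1 (-0.071 to 0.021). A lone sample never remained in a group. The difference in the log2 ratio of Txnip to Txn1 was 0.028 to 0.62. Control and PWS lines of the same replicate number did not deviate together (correlations 0.0034, 0.047 and 0.0051), so the numbers were not taken as pairs. The replicate number as a block gave 36 genes in all, 0 of the 10, and a ratio difference of 0.35. Gpx1, Aoc3, Aox1 and Dio1 were not tested with a mean of at least 50, Mt1 and Aoc3 with nonunique none counting, and Aoc3 and Dio1 by RSEM.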

Other observations

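Of the other lists, selenoprotein genes, to which Gpx1, Gpx4 and Txnrd1 belong by function, had 7 of 19 positive log2 fold changes and 12 negative ones (median -0.04), with 0 past the adjusted threshold. Selenof, a selenoprotein of the endoplasmic reticulum, was at 8354, 7879 and 8575 normalized counts in lines 5-9, 2 and 16 of the control group and at 7290, 7090 and 7453 in lines 3, 19-1 and 19-4 of the PWS group. Its groups did not overlap (log2 fold change -0.18, interval -0.33 to -0.04, limma adjusted p = 0.36), as in 17.4% of all genes. Selenoh was at -0.26 (limma adjusted p = 0.42), or -0.17 without line 19-1. The deiodinase Dio1 had the highest value, 1.36 (interval -0.43 to 3.14, adjusted p = 0.55), from 1 to 2 reads in lines 5-9, 2, 16 and 3, beside 15 and 11 in lines 19-1 and 19-4, through which it reached the mean of 5. It was at 2.22 by edgeR, 2.31 by DESeq2, 0.88 with a pseudocount of 5, 0.69 without line 19-1 and 2.30 without line 3.

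Among the genes for oxidant sources, 7 of 17 rows had at most 3 reads in every line and 7 were tested, 4 with a positive and 3 with a negative log2 fold change (median 0.02) and 0 past the adjusted threshold. Aoc3 was at 0.35, with 9 reads or fewer, and the spermine oxidase Smox at -0.27 (limma adjusted p = 0.84 and 0.67), and Aoc3 ran from -0.10 without line 16 to 0.72 without line 5-9. Smox was at -0.085 without line 19-4, -0.42 without line 19-1 and -0.13 with nonunique none counting. Among the partners of the superoxide dismutases and the heme and iron genes, 5 of 12 were positive and 7 negative (median -0.03). Ccs, the copper chaperone of Sod1, was at -0.15 (adjusted p = 0.65), -0.040 without line 19-4 and -0.23 without line 3. The metallothionein gene Mt1 was at 25.6, 125 and 37.0 normalized counts in lines 5-9, 2 and 16 of the control group and at 27.6, 81.3 and 75.5 in lines 3, 19-1 and 19-4 of the PWS group, and only 6.90% of its reads were uniquely assigned. Its log2 fold change of 0.17 (limma adjusted p = 0.95) turned negative by edgeR, DESeq2 and RSEM. Mt1 was highest in line 2, as Txnip was.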
